A study of Mus musculus with 2 samples.

Results

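Chemokine ligands are small secreted proteins that bind receptors on leukocytes and draw those cells along a gradient into tissue. They form 4 structural classes by the spacing of their first cysteines (Ccl, Cxcl, Cx3cl and Xcl), and many lie side by side in gene clusters. In skin, keratinocytes, fibroblasts, vessel cells and resident macrophages are known to make them, and different ligands attract different cells. Every array probe was taken whose array name or current symbol begins with Ccl, Cxcl, Cx3cl or Xcl followed by a digit. This gave 45 probes for 36 ligands, out of 41167 probes for 27594 genes or transcripts.

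Skin RNA was compared between 2 pools: Pla2g2f-transgenic mice, labelled Pla2g2f-Tg/+, and their littermate controls. All mice had a C57BL/6 background and were 25 days old, and each pool held RNA from 4 mice. Pla2g2f encodes a secreted phospholipase A2. The labels do not name the promoter that drives the transgene. On array 1 the transgenic pool carried Cy5 and the control pool Cy3, and on array 2 the dyes were exchanged. Nothing in the labels gives the arrays separate pools, so they count as 1 replicate. No test across mice is possible, and the difference between the 2 arrays is a technical spread. In pooled skin RNA, fewer cells of a type and less RNA per cell cannot be told apart. Of 6 listed keratinocyte markers, 5 were well above background, among them Krt14 and Krt10, and Dsg3 was not.

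A ligand counts as measured if the scanner program marked its probe, for 1 channel or both on array 1, as well above background. This held for 14 of the 36 ligands (38.9%, beside 37.9% of all genes on the array). Among them 11 were well above background in both channels, 3 (Ccl2, Ccl11 and Ccl25) in the transgenic channel only, and 0 in the control channel only. Over all 10454 measured genes, 566 (5.41%) were above background in the transgenic channel only and 708 in the control channel only. The other 22 ligands were not well above background in either channel and have no measured ratio. Such signals are called dim below.

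The probes behind the ligands that differed are shown first, because each ratio is the hybridisation to these 60 bases. The 6 ligands that passed the size rule used below come first, with both probes of Cxcl16, and then Cxcl14, the ligand with the lowest ratio. All are written 5′ to 3′ as deposited, in lower case.

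Ccl2 probe: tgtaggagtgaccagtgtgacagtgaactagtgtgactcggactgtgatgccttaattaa

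Ccl6 probe: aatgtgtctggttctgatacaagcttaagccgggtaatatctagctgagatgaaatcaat

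Ccl9 probe: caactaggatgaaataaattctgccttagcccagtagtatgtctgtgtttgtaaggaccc

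Ccl8 probe: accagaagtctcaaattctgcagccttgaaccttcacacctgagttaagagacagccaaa

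Ccl11 probe: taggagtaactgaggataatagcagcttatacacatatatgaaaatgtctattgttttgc

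Cxcl16 probe, brighter: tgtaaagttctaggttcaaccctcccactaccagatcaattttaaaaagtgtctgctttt

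Cxcl16 probe, dimmer: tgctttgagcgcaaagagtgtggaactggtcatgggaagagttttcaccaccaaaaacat

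Cxcl14 probe: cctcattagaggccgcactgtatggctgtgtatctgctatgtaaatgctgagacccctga

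In the array's design coordinates (mm8), the Ccl2 probe lies at chr11:81853343-81853402 on the plus strand and the Ccl11 probe at chr11:81878765-81878824, also plus. The Ccl8 probe lies at chr11:81932801-81932860 on the plus strand. Ccl9 and Ccl6 are read on the minus strand, at chr11:83390916-83390975 and chr11:83404690-83404749. The brighter Cxcl16 probe lies at chr11:70270473-70270532 on the minus strand. The dimmer one spans chr11:70272214-70274955, a stretch of 2742 bases for a 60-base probe, and so crosses at least 1 intron. The Cxcl14 probe lies at chr13:56298339-56298398 on the minus strand. Which exon or UTR each probe matches was not analysed here. Between probes of different ligands, the longest identical run that involved a ligand called higher was 13 bases, between Ccl8 and Ccl12.

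Ratios are log2 of transgenic over control, and the size rule calls a gene higher or lower where both arrays show a difference of 2-fold or more in the same direction. Among the 14 measured ligands, 6 were higher (Ccl2, Cxcl16, Ccl6, Ccl11, Ccl9 and Ccl8) and 0 were lower. Over all 10454 measured genes the rule called 3.73% higher and 1.68% lower. The median ratio was 0.85 over the measured ligands (1.01 on array 1 and 0.80 on array 2) and -0.0079 over all measured genes. Above 0 on both arrays were 12 of the 14 ligands, beside 35.3% of all measured genes, and Cx3cl1 and Cxcl14 were below 0 on both. With array 1 recomputed from its scanner signals, by normexp for the background and loess for the dyes together, 1 ligand, Ccl6, remained among the higher ones. That setting adds 50 to both channels, which pulls ratios of low signals toward 0. Background-subtracted signals on array 1 were 20.3 (transgenic) and 4.6 (control) for Ccl2, and 190 (transgenic) and 55.0 (control) for Ccl6. The part of the added 50 in the lost calls was not tested. Of the 11 ligands well above background in both channels, 4 were higher (Cxcl16, Ccl6, Ccl9 and Ccl8) and 0 lower, beside 2.64% and 0.936% of the 9188 genes that had a probe of this kind, whether or not it was their brightest. With both arrays centred on spike-in control RNAs, whose log2 ratio of transgenic over control averaged 0.47 as deposited, Ccl2, Cxcl16, Ccl6 and Ccl11 remained and Cxcl14 was called lower.

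**Figure D1:**
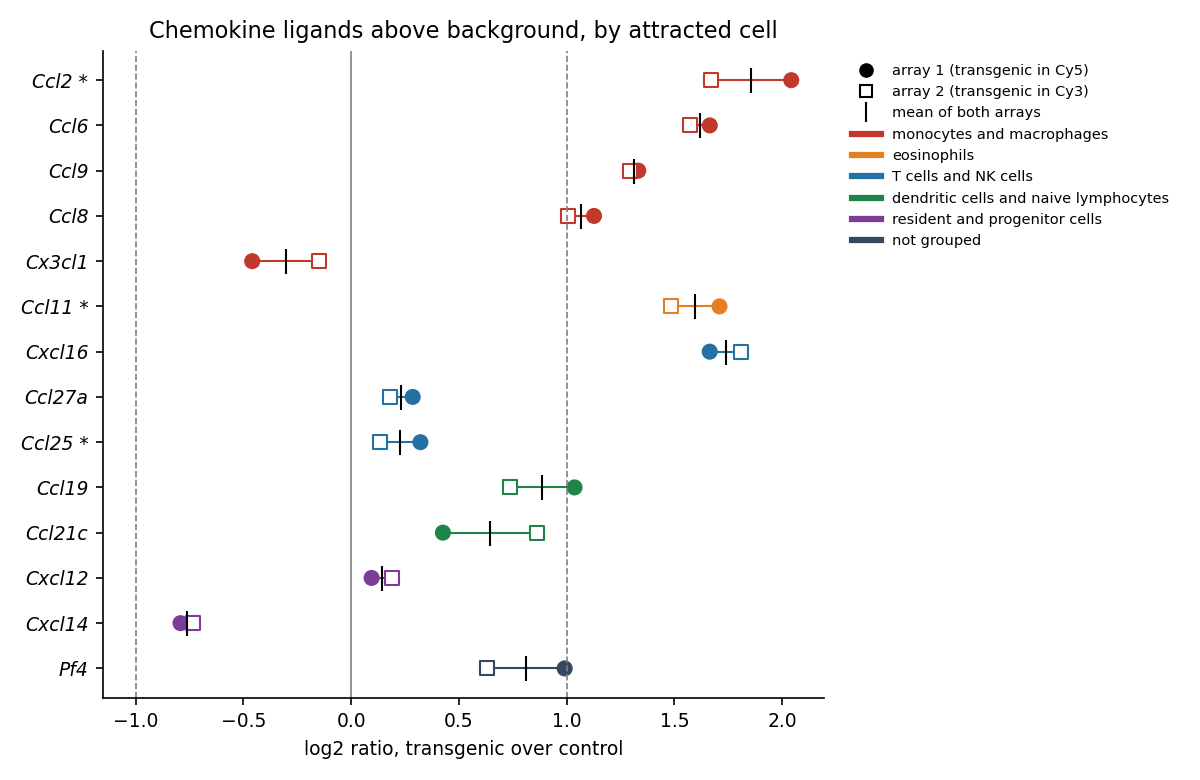
Log2 ratio of transgenic over control skin (horizontal axis) for the 14 measured chemokine ligands, grouped by the cell they attract; circles are array 1, open squares array 2, ticks their mean, dashed lines 2-fold, and an asterisk marks a ligand whose control signal on array 1 was dim, that is, not well above background. The 6 ligands with both points beyond the right dashed line are Ccl2, Ccl6, Ccl9, Ccl8, Ccl11 and Cxcl16, with Ccl8 on array 2 just past the line at 2.01-fold.

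Ligands listed for monocytes and macrophages held 4 of the 6 calls, or 3 without Ccl8. Of 10 such ligands on the array 5 were measured, and 4 of those were higher, beside 3.73% of all measured genes. The group median was 1.31. Ccl2 counts as measured through the transgenic channel alone, where it was high, so the filter favours this count and median. Ccl2 attracts monocytes through the receptor Ccr2. Its signal on array 1 was 354 in the transgenic pool and 86.1 in the control pool, and its deposited log2 ratios were 2.04 and 1.67. The control signal was not well above background, so a nominal fold is given as well. Against 199, the lowest Cy3 signal on array 1 that was well above background, Ccl2 was 1.78-fold higher. This is no strict lower bound, because a control signal above 199 can also be dim, as that of Ccl25 was at 210.4.

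Ccl6 and Ccl9 are neighbouring mouse ligands of the receptor Ccr1. Ccl6 had signals of 3275 in the transgenic pool and 1033 in the control pool on array 1. Its ratios were 1.66 and 1.57, so that Ccl6 rose 3.07-fold in the mean of the arrays. Both channels were well above background, and of the 6 higher ligands only Ccl6 kept its call in every alternative tried. Ccl9 had signals of 1204 (transgenic) and 478 (control), with ratios of 1.33 and 1.30, and rose 2.49-fold. The arrays differed by 0.04 for Ccl9, the smallest difference among the 14 ligands. With the spike-ins as the reference its mean was 0.84 and it was not called.

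Ccl8 was listed here as one of the monocyte chemoattractant proteins, but in mice it is known as a ligand of Ccr8, a receptor of T cells. Its signals were 1112 in the transgenic pool and 509 in the control pool, and it was 2.09-fold higher in the mean of the arrays. Array 1 gave a log2 ratio of 1.13, and array 2 lay at the threshold itself, at 2.01-fold. Ccl8 lost its call when each array was centred on its median probe, at 1.08 on array 1 and 0.93 on array 2. Cx3cl1, a membrane-bound ligand of Cx3cr1, did not pass. It had signals of 494 (transgenic) and 679.7 (control) and ratios of -0.46 and -0.15. Its second probe was not well above background in either channel.

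Some markers of monocytes and macrophages were higher too. Of 7 listed markers 5 were well above background, with a median of 0.90. Among these, 2 (Adgre1 and Lyz2) were called higher at 1.31 and 1.23, beside 3.73% of all measured genes. Csf1r, Mrc1 and Cd163 lay between 0.80 and 0.90 and did not pass, and Cd68 and Cd14 were not well above background. Summed over the 5 measured markers, the signal on array 1 was 25994 in the transgenic pool and 11116 in the control pool. Lyz2 alone gave 22467 and 9424 of these. The part of these cells in the ligand ratios was not tested.

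Ccl11, or eotaxin, attracts eosinophils through Ccr3. On array 1 its signal was 347 in the transgenic pool and 106 in the control pool, where it was not well above background. The deposited ratios were 1.71 and 1.49, and Ccl11 was 1.74-fold higher on array 1 against the same nominal control level of 199. Ccl24, another ligand of Ccr3, was dim in both channels. All 5 listed eosinophil markers (Siglecf, Epx, Prg2, Il5ra and Ccr3) were dim in both channels as well.

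Among ligands of T cells and NK cells, 3 of 12 were measured and 1 was higher, beside 3.73% of all measured genes. Cxcl16 is a transmembrane ligand that can be shed and whose receptor is Cxcr6. Its brighter probe had signals of 877 (transgenic) and 277 (control), both well above background. The ratios were 1.66 and 1.81, so that Cxcl16 rose 3.33-fold. Its dimmer probe, which crosses an intron, gave ratios of 1.07 and 2.12 at signals of 210 in the transgenic pool and 99.9 in the control pool, marked as not well above background in either channel. By the rule used here the dimmer probe has no measured ratio, so its values are not counted beside those of the brighter one.

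Ccl27a, a keratinocyte ligand of Ccr10 that draws T cells to skin, had signals of 1055 (transgenic) and 866 (control). Its ratios were 0.29 and 0.18, and the mean of 0.23 turned to -0.24 with the spike-ins as the reference, so no direction is given. The mouse genome carries near-identical copies of this gene, which 1 probe may not separate. Ccl25, known mainly from thymus and gut, had signals of 263 in the transgenic pool and 210.4 in the control pool, the control value not well above background. Ccl25 had ratios of 0.32 and 0.13, and its mean too changed sign, to -0.24, with the spike-ins.

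T cell markers were mostly dim. Of 7 with a probe 2 were well above background: Thy1, which lay at 0.41, and Cd3e, dim in the control channel, at 0.37, and neither passed. Cd3d, Cd3g, Cd4, Cd8a and Lck were not well above background in either channel, with Cd3d at signals of 275 (transgenic) and 109 (control). The signals of Thy1 and Cd3e summed to 7896 in the transgenic pool and 6009 in the control pool. Thy1 alone gave 7628 and 5794 of these, so the sums report mostly that gene. The part of T cells in the Cxcl16 ratio was not tested.

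Ccl19 and Ccl21c guide dendritic cells and naive lymphocytes through Ccr7, and neither passed the rule. Ccl19 had signals of 3382 (transgenic) and 1649 (control). The ratios of this probe were 1.04 and 0.74, and its second probe gave 1.62 and 0.84, so the arrays fell on either side of 2-fold with each probe. Ccl21c had signals of 779 (transgenic) and 580.3 (control) and ratios of 0.43 and 0.86, the widest gap between arrays among the 14 measured ligands. Several near-identical Ccl21 genes exist in mice, and its probe may report any of them. Of 6 dendritic and Langerhans cell markers, 3 were well above background and all 3 were higher, beside 3.73% of all measured genes. Cd74 lay at 1.12, H2-Ab1 at 1.42 and H2-Eb1 at 1.5. These 3 are genes of MHC class II antigen presentation and are not independent of each other. Cd207, Itgax and Flt3 were dim. The 3 measured markers had a summed signal of 9389 in the transgenic pool and 3815 in the control pool on array 1, and their part in the Ccl19 ratios was not tested. Lyve1, a lymphatic vessel marker also found on macrophages, was higher at 1.84, and the other 3 lymphatic markers (Prox1, Pdpn and Flt4) were dim.

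Markers of other skin cells were read in the same way, beside the 3.73% of all measured genes that were called higher. All 4 measured adipocyte markers were higher, with a median of 1.49 and a summed signal of 314440 in the transgenic pool and 97672 in the control pool; Lep was dim. Of 5 endothelial markers 3 were measured and Vwf was higher, at 1.08, while Pecam1 and Tek were dim. None (0) of the 6 fibroblast markers passed, with a median of 0.17. Of 6 mast cell markers 4 were measured and 0 passed, with a median of 0.72. Cpa3 lay at 0.98, Cma1 at 0.82, Mcpt4 at 0.62 and Kit at -0.94. Krt1 and Krt14 were the 2 keratinocyte markers called higher, at 2.26 and 1.12. The part of these cells in the ligand ratios was not tested.

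Ligands that act on resident or progenitor cells did not pass either. Cxcl12, the ligand of Cxcr4, had signals of 1968 in the transgenic pool and 1842 in the control pool. Its ratios were 0.09 and 0.19, and a probe for another transcript of Cxcl12 gave 0.21 and 0.35. The Cxcl12 mean of 0.14 turned to -0.33 with the spike-ins. Cxcl14, a ligand made by epithelial cells, had the lowest ratio of the family. Its signals were 2062 (transgenic) and 3571 (control), and ratios of -0.79 and -0.74 put it 1.70-fold lower in the mean. Cxcl14 was below the control on both arrays under each of the 4 scalings plotted, and past 2-fold only with the spike-ins as the reference, at -1.23. Pf4, platelet factor, is a member by its older array name Cxcl4 and was put in no group. It had signals of 2585 (transgenic) and 1301 (control) and ratios of 0.99 and 0.63, and did not pass.

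**Figure D2:**
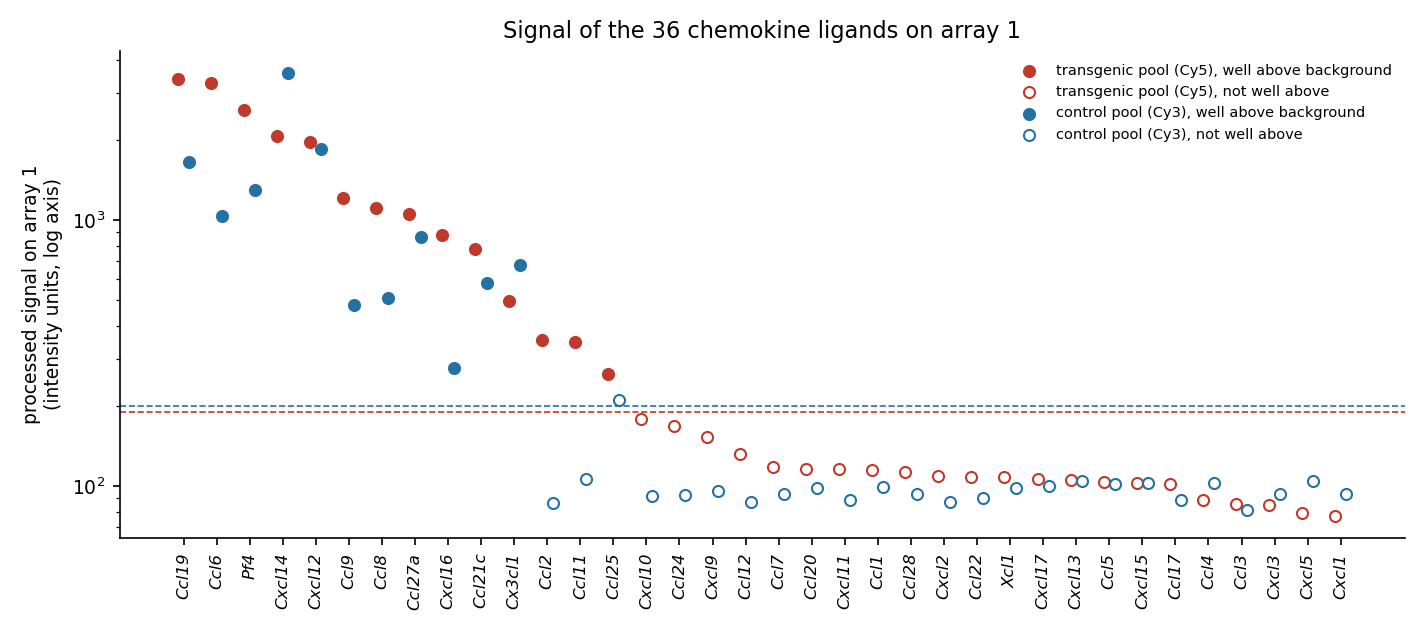
Processed signal on array 1 (vertical log axis, intensity units) of the 36 chemokine ligands, each by its brightest probe, or its brightest one above background; red is the transgenic pool in Cy5 and blue the control pool in Cy3, filled points are well above background, and dashed lines mark the lowest such signal in each channel, 190.0 in Cy5 and 199 in Cy3. The 22 ligands on the right have open points only, with transgenic signals from 77.1 to 179 and control signals from 81.0 to 104.

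None (0) of the 5 ligands of neutrophils was measured. Cxcl1, Cxcl2, Cxcl3, Cxcl5 and Cxcl15, most of which act on Cxcr2, were dim in both channels, and so were the 6 neutrophil markers with a probe. Cxcl1 had signals of 77.1 in the transgenic pool and 93.2 in the control pool, and Cxcl2 signals of 109 (transgenic) and 86.7 (control). Such values lie within the background of the array, so a difference in these ligands was not detectable at this signal.

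The remaining dim ligands were 5 of monocytes and macrophages (Ccl3, Ccl4, Ccl5, Ccl7 and Ccl12), 9 of T cells and NK cells (Ccl1, Ccl17, Ccl20, Ccl22, Ccl28, Cxcl9, Cxcl10, Cxcl11 and Xcl1), and Ccl24, Cxcl13 and Cxcl17. Among all 22, the deposited log2 values ranged from -0.17 to 1.01 and carry no fold here. The 5 farthest from 0 were Cxcl10, Ccl7, Ccl12, Cxcl9 and Ccl24. Cxcl10, an interferon-induced ligand of Cxcr3, had signals of 179 in the transgenic pool and 91.4 in the control pool on array 1. Cxcl9, induced in the same way, had 153 in the transgenic pool and 95.8 in the control pool. Ccl7, a ligand of Ccr2 like Ccl12, had 117 (transgenic) and 93.1 (control), and Ccl12 had 132 (transgenic) and 87.3 (control). Each of these transgenic signals was below 190.0, the lowest one in Cy5 marked as well above background.

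The order of the measured ligands was only partly resolved. Over the 11 ligands well above background in both channels, the order from the highest mean ratio to the lowest was Cxcl16, Ccl6, Ccl9, Ccl8, Ccl19, Pf4, Ccl21c, Ccl27a, Cxcl12, Cx3cl1 and Cxcl14. Of the 10 steps between neighbours, 4 were larger than the difference between arrays of either neighbour: those between Ccl6 and Ccl9, Ccl9 and Ccl8, Cxcl12 and Cx3cl1, and Cx3cl1 and Cxcl14. Cxcl16 and Ccl6 at the top thus have no settled order, and neither do the ligands from Ccl8 down to Cxcl12, taken step by step. Ccl2, Ccl11 and Ccl25 have no place in it, as their control channel was dim. The difference between arrays had a median of 0.17 over the 14 ligands and 0.23 over all genes. The scanner program's own error of the log2 ratio on array 1 ran from 0.21 for Cxcl12 to 0.53 for Ccl2.

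**Figure D3:**
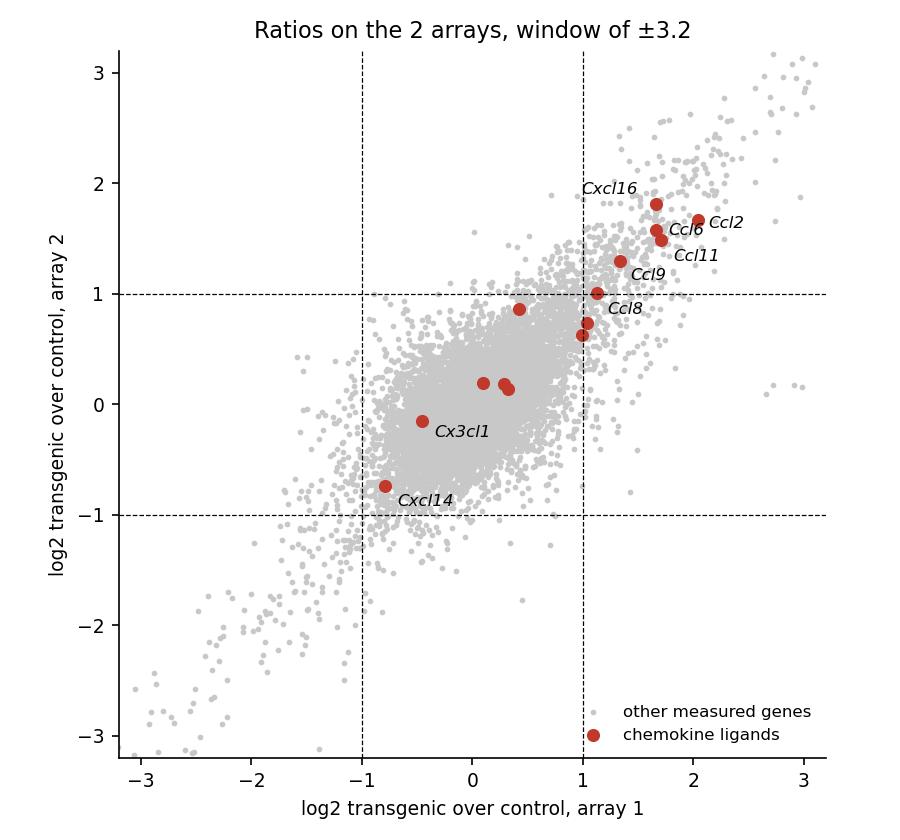
Log2 ratio of transgenic over control on array 1 (horizontal) and on array 2 with its sign turned (vertical); grey points are the other measured genes, red points the 14 chemokine ligands, and dashed lines mark 2-fold. Ccl2, Cxcl16, Ccl6, Ccl11, Ccl9 and Ccl8 lie in the upper right field, and 55 other genes fall outside the window of 3.2 either way.

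The higher ligands shared a chromosome. Of the 36 ligands, 12 have their brightest probe on mouse chromosome 11, and 6 of these were measured, all 6 being higher. Elsewhere in the genome 24 ligands had a probe, of which 8 were measured and 0 were higher. Ccl2 and Ccl11 count as measured through the transgenic channel alone, where they were high. Among ligands well above background in both channels, 4 lay on chromosome 11, all 4 being higher, and 7 lay elsewhere, with 0 higher. Over the whole genome the rule called 3.73% of all measured genes higher. Of genes with a probe well above background in both channels it called 2.64% higher. Cxcl16 lies apart from the others at chr11:70270473-70270532. Ccl2, Ccl11 and Ccl8 belong to a group of 6 ligand genes whose probes span 139.7 kb, with Ccl7, Ccl12 and Ccl1 dim. Ccl6 and Ccl9 belong to a group of 5 whose probes span 139 kb, with Ccl3, Ccl4 and Ccl5 dim. On chromosome 5 a group of 6 (Cxcl1, Cxcl2, Cxcl3, Cxcl5, Cxcl15 and Pf4) had 1 measured member, Pf4, and a group of 3 (Cxcl9, Cxcl10 and Cxcl11) had 0. On chromosome 4, Ccl19, Ccl21c and Ccl27a were all measured and none was called. Ligands of 1 cluster are related genes and are not independent of each other. The share of all measured genes of chromosome 11 that were called higher was not analysed here.

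**Figure D4:**
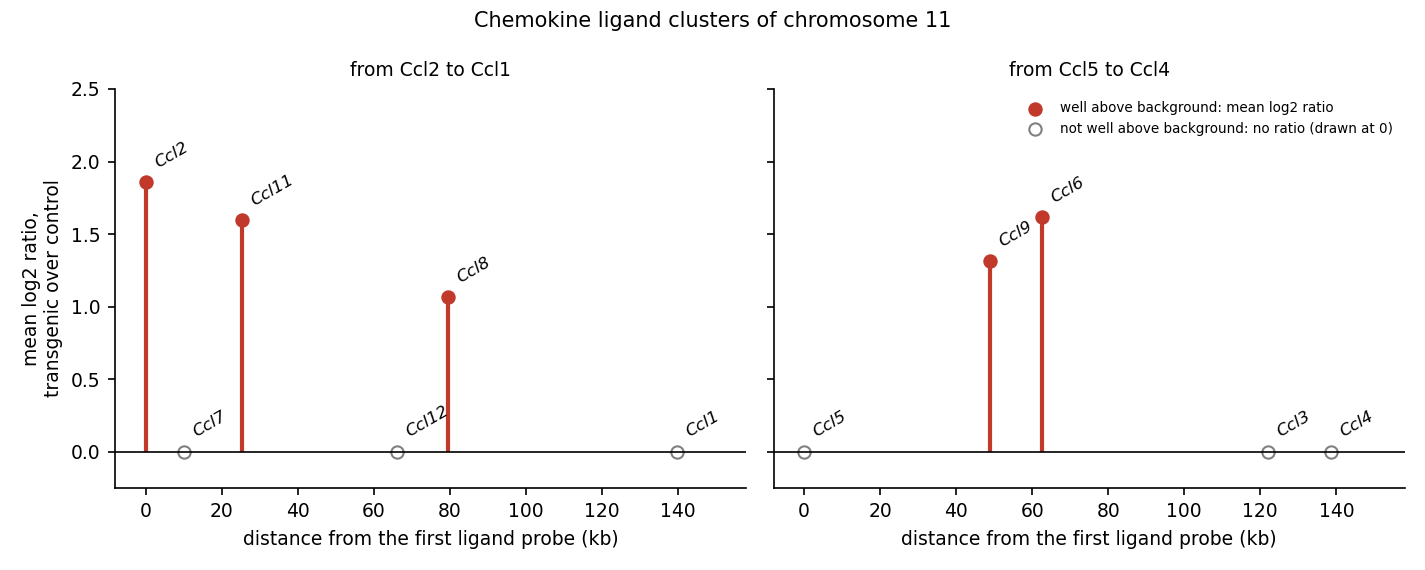
Mean log2 ratio of transgenic over control (vertical) against distance from the first ligand probe in kb (horizontal) for the 2 chemokine clusters of chromosome 11; filled points with stems are measured ligands, and open grey points at 0 are ligands with no measured ratio. The stems of Ccl2, Ccl11 and Ccl8 stand at 1.86, 1.60 and 1.07, and those of Ccl9 and Ccl6 at 1.31 and 1.62.

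Since several of the higher ligands are neighbours, promoter windows of the family were read from RefSeq (GRCm38.p6), from 250 bases before the start of the gene to 50 bases after it. Windows were found for 25 of the 36 ligands, and for Ccl6, Ccl8 and Ccl9 among the 6 higher ones. NF-κB is a transcription factor that switches on many chemokine genes in inflammation. Its consensus, searched on both strands, was found in 7 of 28 ligand windows, beside 4.51% of all 32851 windows of the table. The ligands with it were Ccl9, which was higher, Ccl27a, which was not called, and Cxcl1, Cxcl2, Cxcl3, Cxcl10 and Ccl20, which were dim in both channels. The letters TATAAA, on either strand, stood in 9 of the 28 ligand windows, among them those of Ccl8 and Ccl9, and in 13.6% of all windows. A core of interferon response elements, GAAA followed by any 2 bases and GAAA again, stood in 3 ligand windows (Ccl19, Cxcl10 and Cxcl14) and in 3.44% of all. These matches are letters in a window and no measured binding.

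The windows of the 3 higher ligands and of Cxcl1, as an example of a dim ligand with the consensus, are printed in the direction of the gene. Capitals mark the NF-κB consensus and TATAAA on either strand, and matches that overlap run together. The Ccl9 window is chr11:83578587-83578886 (minus strand), the Ccl6 window chr11:83593038-83593337 (minus), the Ccl8 window chr11:82114935-82115234 (plus) and the Cxcl1 window chr5:90890995-90891294 (plus).

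Ccl9 promoter window: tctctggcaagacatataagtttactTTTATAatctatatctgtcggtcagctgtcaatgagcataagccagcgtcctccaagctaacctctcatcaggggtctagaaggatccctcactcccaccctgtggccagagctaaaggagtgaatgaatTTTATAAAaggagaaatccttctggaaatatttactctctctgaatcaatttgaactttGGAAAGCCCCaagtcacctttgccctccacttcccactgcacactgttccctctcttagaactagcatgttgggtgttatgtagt

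Ccl6 promoter window: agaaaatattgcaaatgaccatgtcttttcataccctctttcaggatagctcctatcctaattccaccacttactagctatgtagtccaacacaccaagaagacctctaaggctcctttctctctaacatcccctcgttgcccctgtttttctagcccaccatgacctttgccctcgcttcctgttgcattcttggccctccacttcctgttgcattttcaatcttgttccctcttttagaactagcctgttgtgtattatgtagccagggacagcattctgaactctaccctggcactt

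Ccl8 promoter window: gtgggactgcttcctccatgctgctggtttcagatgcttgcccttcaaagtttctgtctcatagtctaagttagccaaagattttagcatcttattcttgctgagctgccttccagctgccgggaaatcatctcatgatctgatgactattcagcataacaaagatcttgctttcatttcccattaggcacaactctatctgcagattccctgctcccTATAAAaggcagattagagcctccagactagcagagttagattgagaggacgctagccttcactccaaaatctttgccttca

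Cxcl1 promoter window: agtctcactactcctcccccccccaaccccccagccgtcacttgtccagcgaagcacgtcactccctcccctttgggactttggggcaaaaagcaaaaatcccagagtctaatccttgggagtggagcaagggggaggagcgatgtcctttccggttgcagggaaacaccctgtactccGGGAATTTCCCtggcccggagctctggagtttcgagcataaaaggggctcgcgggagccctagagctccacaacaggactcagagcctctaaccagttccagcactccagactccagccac

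In Ccl9 the NF-κB consensus begins at position -35 on the opposite strand, and in Cxcl1 it begins at -71, where it reads on both strands with a shift of 1 base. TATAAA begins at -32 in Ccl8. The windows of Ccl6 and Ccl9 share a stretch around the start of the gene that aligned over 74 columns with 59 identical bases (79.7%) and an identical run of 13 bases. It covers positions -59 to 14 in Ccl6 and -18 to 48 in Ccl9, counting the first base of the gene as 0.

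The receptors of these ligands were mostly below the reach of the array. Of 19 chemokine receptors with a probe, 2 were well above background and both were higher, each with a dim control channel. Both count as measured through the transgenic channel alone, where they were high, so the filter favours this count. The rule called 3.73% of all 10454 measured genes higher. Ccr2, the receptor of Ccl2 on monocytes, had signals of 491 in the transgenic pool and 123 in the control pool. Its ratios were 1.995 and 2.20, and against the nominal control level of 199 Ccr2 was 2.47-fold higher on array 1. Cxcr6, the receptor of Cxcl16 on T cells, had signals of 1493 (transgenic) and 91.8 (control) and ratios of 4.02 and 3.40. Against the same level of 199 Cxcr6 was 7.50-fold higher on array 1. Their ligands, Ccl2 and Cxcl16, were both called higher, though Ccl2 too was measured through the transgenic channel alone. With only probes well above background in both channels 0 receptors were left, and with normexp and loess on array 1 the count was 1.

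The other 17 receptors, including Ccr1, Ccr3, Ccr7, Ccr8, Ccr9, Ccr10, Cxcr4 and Cx3cr1, were not well above background, so the receptors listed for Ccl6, Ccl9, Ccl11, Ccl19 and Ccl8 have no measured ratio of their own. Ccr6, also dim in both channels, had signals of 226 (transgenic) and 85.6 (control) and deposited ratios of 1.40 and 1.39. With dim probes kept, Ccr6 was called too, and 3 of the 19 receptors were higher. Atypical receptors, which bind chemokines without classical signalling, had 3 of 5 members measured. Ackr1, found on venules and red cells, was higher with ratios of 1.77 and 1.45, at signals of 319 in the transgenic pool and 93.5 in the control pool. Its control signal was dim, and against the nominal control level of 199 Ackr1 was 1.60-fold higher on array 1. Ackr3, which binds Cxcl12, had ratios of 0.75 and 0.30, and Ackr4, which binds Ccl19 and Ccl21 and was dim in the control channel, 0.45 and -0.15, and neither passed.

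Other genes of the pathway did not pass. Rarres2, which encodes the chemoattractant chemerin, had ratios of 0.89 and 0.90, and the platelet chemokine Ppbp was dim. Of 7 proteases that shed or trim chemokines, 4 were measured and 0 were called: Mmp2 lay at 0.69, Dpp4 at 0.35, Adam17, a sheddase, at 0.14 and Mmp14 at 0.08. Adam10, the main sheddase of Cxcl16 and Cx3cl1, was not well above background. None (0) of the 11 cytokines with a probe on a list of chemokine inducers was measured, Tnf, Il1b, Il6, Il17a and Ifng among them.

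**Figure D5:**
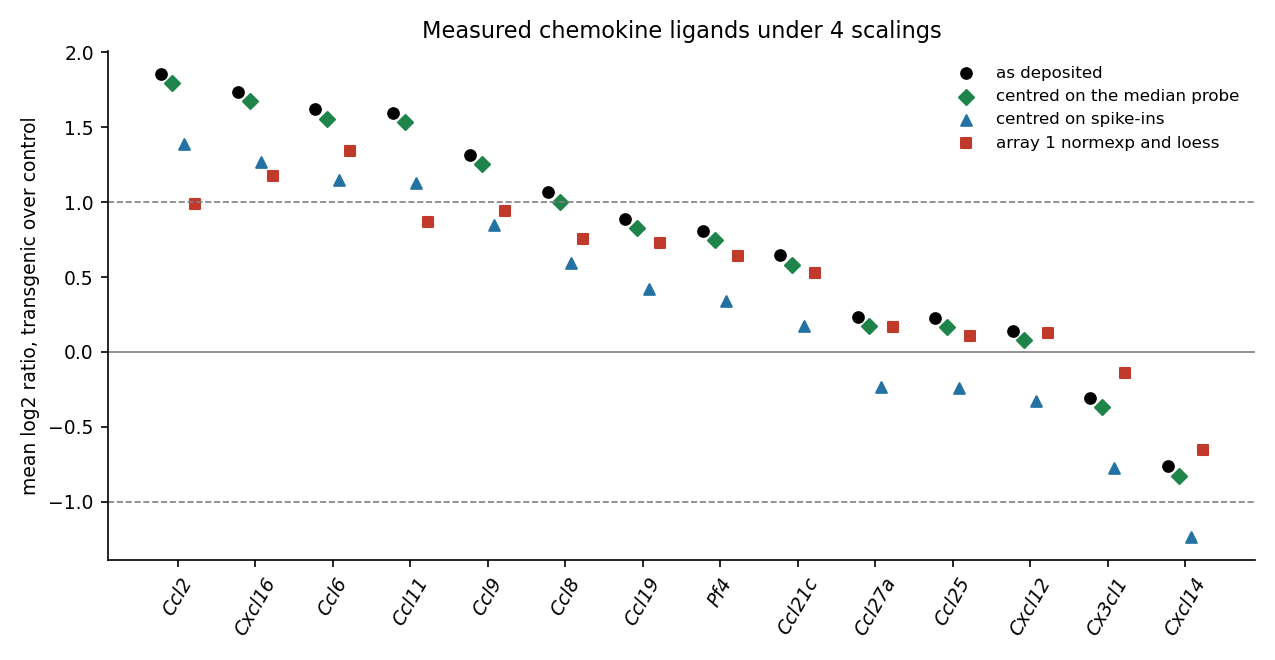
Mean log2 ratio of transgenic over control (vertical) of the 14 measured ligands under 4 scalings: as deposited (black circles), centred on the median probe (green diamonds), centred on the spike-ins (blue triangles) and with array 1 from normexp and loess (red squares); dashed lines mark 2-fold. Ccl2, Cxcl16, Ccl6, Ccl11, Ccl9, Ccl8, Ccl19, Pf4 and Ccl21c lie above 0 under all 4 and Cx3cl1 and Cxcl14 below 0, while Ccl27a, Ccl25 and Cxcl12 cross 0 with the spike-ins.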

How the data were processed

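Per the labels' protocols, 500 ng of total skin RNA was amplified and dye-labelled. It was hybridised to 2 Agilent mouse arrays. Per the file headers and the submitters' processing notes, Agilent Feature Extraction 9.5.1.1 made the deposited spot intensity values of array 1: spatial detrending and surrogates for dim values were on, global background correction was off, and LOWESS settings are recorded for dye normalisation. The surrogates pull ratios of dim spots toward 0. The deposited log10 values, 1 column per array, are log10 of Cy5 over Cy3; for array 1 they matched the processed signals at all 43790 features. The column of array 2 has its sign unturned (the columns correlated at -0.579 over all probes) and was turned here. Its 10 spike-in RNAs, which go with the dye and not with the mice, correlated at 1.00 with those of array 1. Centring on spike-ins took their mean over the 10, where set ratios cancel. The column medians, 0.0141 and -0.0234, show that neither was centred exactly on its median probe. No later step by the authors is stated, and spot files of array 2 were not analysed here.

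Values were converted to log2 with Python 3.11.15 (pandas 2.3.3), and the 2 arrays were averaged as 1 replicate. Control spots and 29 outlier spots were left out, spots of a probe were averaged, and the brightest probe well above background stood for a gene. The size rule asks for 2-fold on each array. Nominal folds divide the bright signal by the lowest signal well above background, after the program's dye normalisation, and rest on 1 array, open to dye bias. They are no strict lower bounds, because some signals above that level were also marked as dim. Background of array 2 could not be checked. The number of arrays limits the precision. Over 15 probes printed 9 or 10 times, log2 ratios had a median SD of 0.09 (array 1) and 0.07 (array 2). Current symbols came from a RefSeq table (GRCm38.p6): 24362 probes matched it through an accession, 6306 through a symbol and 2424 through a synonym, while 8075 have the name given by the array. Array 1 was also corrected with limma 3.58.1 (normexp, offset 50, and loess). Promoter windows were aligned with Biopython 1.88.

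Ligands, lists, alternatives and figures were chosen with earlier results of these data known. Every measured ligand is named, with the 5 dim ones farthest from 0. Up to 6 measured genes are named per pathway list, by size, and other names of pathway genes and of markers were chosen after their values were seen.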

Additional observations from a re-analysis of the deposited data

How the results depend on the processing

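Over the 14 measured ligands and 8 alternatives, 96 single values kept their sign and whether they were called, 8 lost their call, 2 gained one and 3 changed sign. With array 1 from normexp and loess, 1 ligand was higher, the ligand median was 0.69, 1 receptor was higher, and 107 genes were higher and 56 lower. Centred on the spike-ins, 1 ligand (Cxcl14) was lower, the ligand median was 0.38, Ccl27a, Ccl25 and Cxcl12 turned to -0.24, -0.24 and -0.33, and 172 genes were higher and 475 lower, so that higher genes made up 26.6% of the calls, beside 68.9% as deposited. With dim probes kept, the median over all 36 ligands was 0.23. Where both channels had to be well above background, 0 receptors were left, and 243 genes were higher and 86 lower. Of the 11 ligands left, 4 were higher, beside 2.64% of 9188 genes. At 1.5-fold, 8 ligands were higher (Ccl19 and Pf4 being added) and 1 (Cxcl14) was lower, and 864 genes were higher and 397 lower. From 1 array alone, the count of higher ligands was 6 or 7 (Ccl19 being added on array 1), the ligand median 0.80 or 1.01, the count of higher genes 520 or 570 and that of lower genes 259 or 274. Causes of these shifts were not tested. The main limits are the low signal, which leaves 22 ligands without a ratio, and the single pool per genotype. No paired analysis was possible because the 2 arrays count as 1 replicate, and each ratio is already a pair within its array.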
